A study of Mus musculus with 6 samples.

Results

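The genes examined here are 36 genes of the endoplasmic reticulum (ER) folding machinery and of the unfolded protein response. The list was drawn up by name and function, with earlier results of these data known: the ER chaperones of the HSP70, HSP90 and HSP110 families, the lectin chaperones, the disulfide isomerases and oxidases, the co-chaperones, the ER-associated degradation (ERAD) machinery, the translocon, and the sensors of the response with XBP1. All 36 were among the 55453 genes listed in the count table, and all 36 passed the filter on low counts that left 13680 genes for testing.

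Poly(A) RNA was sequenced from bone marrow-derived macrophages (BMDM) of C57BL/6 mice, with 3 PP2A-KO and 3 WT libraries. The PP2A-KO cells came from LysMcre PP2Ac fl/fl mice, in which the cre recombinase is driven by the Lysozyme 2 promoter of the myeloid lineage and removes a floxed exon of Ppp2ca, the gene for the alpha isoform of the catalytic subunit of protein phosphatase 2A. The WT mice were C57BL/6 animals from a commercial colony that carried neither cre nor the floxed allele, so the loss of PP2Ac cannot be told apart from other differences between the colonies. According to the study's description, all BMDM were treated with cGAMP, the cyclic dinucleotide that activates STING, and young adult mice of both sexes were used. The labels give no treatment, no untreated libraries were analysed here, and nothing in the labels says whether the 3 libraries of a group came from separate animals, so p-values measure the spread between these libraries, which may be technical.

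Secreted and membrane proteins enter the ER through the translocon and fold there with the help of chaperones and disulfide isomerases, and proteins that fail to fold are returned to the cytosol and degraded (ERAD). When unfolded proteins accumulate, the sensors IRE1, PERK and ATF6 start the unfolded protein response: IRE1 splices the mRNA of the transcription factor XBP1, PERK phosphorylates the initiation factor eIF2alpha, and ATF6 is cleaved to an active transcription factor. Macrophages depend on this machinery for the secretion of cytokines and the display of surface receptors, and STING itself is an ER membrane protein.

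Many promoters of ER chaperone genes hold an ER stress response element (ERSE, the letters CCAAT and CCACG with 9 bases of any kind between them), at which ATF6 and the factor NF-Y bind. ERSE-II (ATTGG and CCACG with 1 base of any kind between them) and the unfolded protein response element (UPRE, TGACGTGG) are related elements of the same response. The RefSeq promoter sequences (GRCm38.p6, 250 bases before to 50 bases after each start) had an entry for 31 of the 36 genes, with Ero1l and Ero1lb matched through their current symbols, and both strands were searched for the exact letters. ERSE was found in 10 of these 31 promoters (32.3%), against 39 of 32851 promoters in all (0.119%). ERSE-II was found in 2 of 31 (6.45%), against 12 of 32851 (0.0365%), and UPRE in 0 of 31, against 222 of 32851 (0.676%). The elements found are shown because they mark which of the genes carry the letters of this response near their start, in lower case with the fixed letters of the motif in capitals, 5′ to 3′ on the strand that holds the motif.

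Hspa5, ERSE, chr2:34772025-34772043: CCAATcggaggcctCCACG

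Hsp90b1, ERSE, chr10:86705638-86705656: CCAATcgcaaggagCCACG

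Hsp90b1, second ERSE, chr10:86705533-86705551: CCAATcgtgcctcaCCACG

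Calr, ERSE: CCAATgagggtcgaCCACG

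Canx, ERSE: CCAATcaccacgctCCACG

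Pdia6, ERSE: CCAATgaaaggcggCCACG

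Ero1lb, ERSE: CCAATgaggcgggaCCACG

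Dnajc3, ERSE: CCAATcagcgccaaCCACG

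Creld2, ERSE: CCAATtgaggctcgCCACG

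Syvn1, ERSE, chr19:6046532-6046550: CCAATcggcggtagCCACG

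Derl3, ERSE: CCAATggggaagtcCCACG

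Herpud1, ERSE-II, chr8:94386377-94386387: ATTGGgCCACG

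Dnajb11, ERSE-II, chr16:22857852-22857862: ATTGGcCCACG

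A match is a description of letters and not of binding. The ERSE of Hspa5 ended 47 bases before the RefSeq start on the plus strand, inside the longer GENCODE M21 model of the gene, that of Syvn1 ended 26 bases before it and the ERSE-II of Herpud1 ended 42 bases before it, whereas the ERSE-II of Dnajb11 lay 7 to 17 bases after the start. Syvn1 and Herpud1 are described below as genes that passed the test in opposite directions, and the 150 bases before their starts are therefore given with the element in capitals.

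Syvn1, chr19:6046426-6046575, plus strand: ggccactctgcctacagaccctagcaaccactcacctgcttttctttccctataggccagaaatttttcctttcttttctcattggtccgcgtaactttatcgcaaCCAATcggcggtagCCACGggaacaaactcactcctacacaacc

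Herpud1, chr8:94386279-94386428, plus strand: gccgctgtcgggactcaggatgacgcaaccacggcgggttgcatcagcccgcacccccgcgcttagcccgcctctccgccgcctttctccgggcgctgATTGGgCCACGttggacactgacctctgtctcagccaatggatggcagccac

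The 6 libraries held 35257156 to 47390899 counts in genes. Ppp2ca, the targeted gene, had 47, 33 and 38 counts in the PP2A-KO libraries and 10654, 8913 and 8279 in the WT libraries, as the labels require. Levels are given in CPM, counts scaled to the size of the library after adjustment by the trimmed mean of M-values (TMM), and differences as the log2 fold change of PP2A-KO over WT with its standard error (SE) from edgeR's quasi-likelihood test. A false discovery rate (FDR, Benjamini-Hochberg over the 13680 genes) under 0.05 was the threshold. Over all genes tested, 2470 (18.1%) were higher and 2604 (19%) lower in PP2A-KO, 37.1% in either direction, and with upper-quartile scaling the counts were 2095 higher and 3356 lower. Over the tested genes the median difference on the log2 scale was -0.02 with TMM and -0.09 with upper-quartile scaling, and a difference of a gene is best read relative to that shift.

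All 36 genes had counts in every library. Levels between genes were compared as CPM per kb of exon (GENCODE M21 gene models). In WT BMDM, Calr had the highest level at 248 ± 1.44 CPM per kb (SD, n = 3), followed by Hspa5 at 160.2 ± 18.2, P4hb at 127 ± 3.0 and Pdia3 at 109.6 ± 2.97. Os9 and Canx came next at 102 ± 2.62 and 102 ± 5.37, and their ranges could not be separated. At the other end, Eif2ak3, Ero1l, Herpud1 and Ero1lb lay between 4.46 and 4.84 CPM per kb in WT, neighbours that did not differ beyond their spread, and Derl3 lay at 0.13. Derl3 had 9 to 15 counts per library and was the only one of the 36 near the detection limit. In PP2A-KO BMDM, Calr lay at 248.8 ± 9.78 CPM per kb while Hspa5 lay at 227.5 ± 4.37, and the first 7 means had the same order as in WT. Within that order P4hb (124.1 ± 7.32), Pdia3 (119.4 ± 5.73) and Os9 (119.3 ± 0.241) could not be separated in PP2A-KO.

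**Figure D1:**
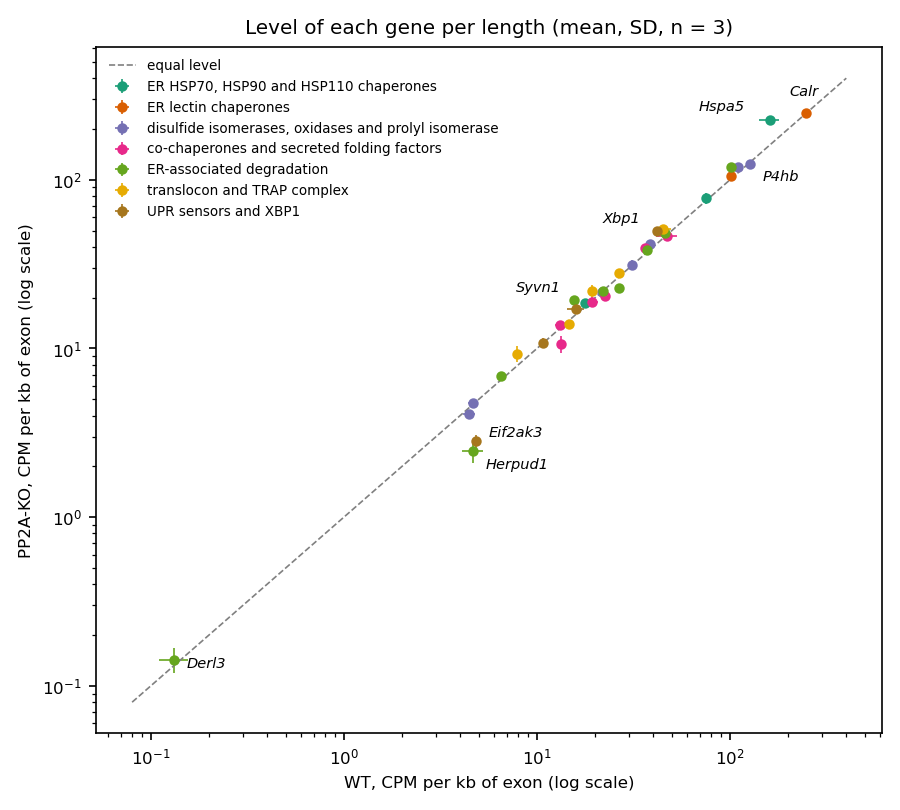
Level of each of the 36 genes in WT (x axis) and PP2A-KO (y axis) BMDM, in CPM per kb of exon on log axes. Points are means and bars the SD of 3 libraries, coloured by role, and the dashed line marks equal levels. Most genes lie on the line, Hspa5 lies above it and Herpud1 and Eif2ak3 lie below it.

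Of the 36 genes, 4 were higher in PP2A-KO (Hspa5, Syvn1, Xbp1 and Os9), 4 were lower (Herpud1, Eif2ak3, Dnajb9 and Edem2) and 28 did not pass the test. The share called was 11.1% in each direction, below the 18.1% and 19% of all genes tested. With the replicate number as a block, 9 were higher and 5 lower, against 24.4% and 26.4% of all genes. Their median log2 fold change was 0.05, with the middle 50% between -0.02 and 0.13, whereas the middle 50% of all genes lay between -0.26 and 0.20. A log2 fold change within ± 0.25 was found for 31 of the 36 (86.1%) and for 52.2% of all genes tested. None of the 36 reached a log2 fold change beyond 1 in either direction at FDR under 0.01 with edgeR, DESeq2 or limma-voom, a threshold that 3.36% of all genes passed upward and 2.99% downward. In edgeR 12 of the 36 had an unadjusted p under 0.05, while 37.1% of all genes tested passed the stricter FDR under 0.05. The 3 PP2A-KO libraries were all above the 3 WT libraries for 10 of the 36 genes and all below for 6, against 24% and 26.8% of all genes tested.

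**Figure D2:**
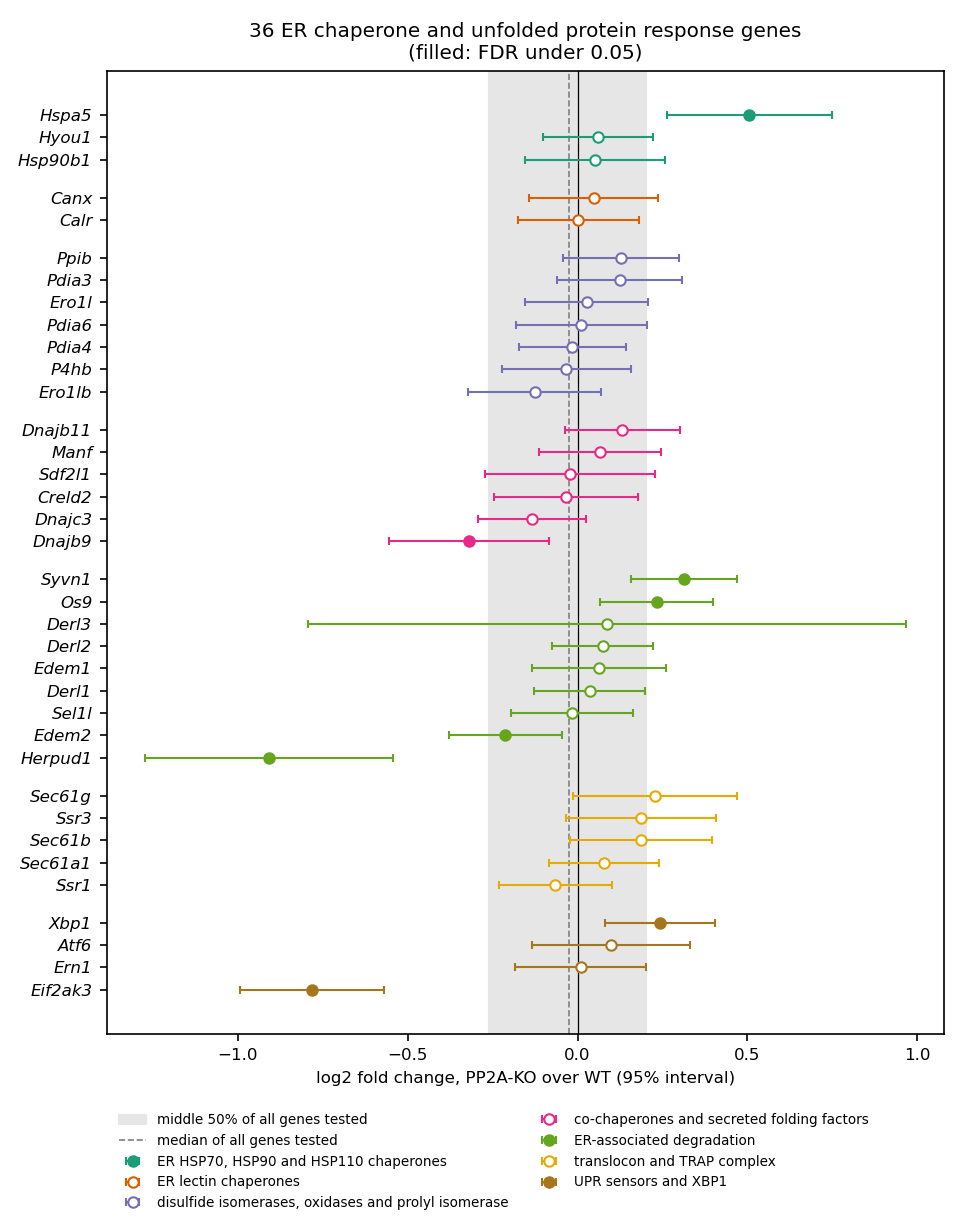
The log2 fold change of PP2A-KO over WT for each of the 36 genes, grouped by role, with its 95% interval. Filled points passed FDR under 0.05, the grey band is the middle 50% of all 13680 genes tested (-0.26 to 0.20) and the dashed line their median (-0.02). The 4 filled points on the right are Hspa5, Syvn1, Xbp1 and Os9, and the 4 on the left are Herpud1, Eif2ak3, Dnajb9 and Edem2.

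Among the large chaperones, Hspa5 was higher in PP2A-KO BMDM and its partners were not called. Hspa5 encodes BiP, the HSP70 chaperone of the ER lumen that also holds the stress sensors inactive. Its levels were 980.0, 964 and 943 CPM in the 3 PP2A-KO libraries and 764, 652 and 616 CPM in the 3 WT libraries. Each PP2A-KO library lay above each WT library, and the spread was wider in WT (678 ± 77.1) than in PP2A-KO (962 ± 18.5; SD, n = 3). The difference was 42.0% (log2 fold change 0.51, SE 0.09, 95% interval 0.26 to 0.75, adjusted p = 0.00189 by edgeR), the largest increase among the 36 genes. Hspa5 lies at chr2:34771970-34777547 on the plus strand (GENCODE M21, GRCm38).

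Hsp90b1, which encodes the HSP90 paralog GRP94 that folds integrins and Toll-like receptors, had 290.4, 315 and 334 CPM in PP2A-KO and 317, 290.3 and 299.9 CPM in WT. The groups overlapped, and the log2 fold change was 0.05 (95% interval -0.15 to 0.26). Exons of other genes cover 5.38% of its exonic bases on the same strand and 10.3% on the opposite strand. Hyou1, the HSP110 nucleotide exchange factor of BiP, had 134 ± 3.11 CPM in PP2A-KO and 129 ± 3.23 CPM in WT (log2 fold change 0.06, adjusted p = 0.454). The intervals of both lay below the estimate for Hspa5, although the difference between genes was not tested.

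The lectin chaperones calreticulin and calnexin, which bind monoglucosylated glycoproteins, showed no detectable difference. Calr had 685, 724 and 740.1 CPM in PP2A-KO and 718, 717 and 710.5 CPM in WT, with a 95% interval of the log2 fold change from -0.18 to 0.18. Canx had 480.0, 488 and 510.0 CPM in PP2A-KO and 505, 456 and 469 CPM in WT (log2 fold change 0.05, adjusted p = 0.619). For both genes the libraries of the groups overlapped. Of these 2 genes, 0 passed FDR under 0.05 and 0 had an unadjusted p under 0.05 in edgeR, and DESeq2 and limma-voom called 0 as well. Both promoters hold an ERSE, as Hspa5 does.

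None of the 7 disulfide isomerases, oxidases and prolyl isomerase was called. The edgeR test, DESeq2 and limma-voom each gave 0 calls at FDR under 0.05, and 0 of the 7 had an unadjusted p under 0.05 in edgeR. The isomerases P4hb (355 ± 20.9 against 363 ± 8.58 CPM), Pdia4 (51.5 ± 1.96 against 52.0 ± 1.14) and Pdia6 (117 ± 8.31 against 117 ± 3.87) had log2 fold changes between -0.03 and 0.01. Pdia3, the isomerase that works with calnexin and calreticulin, had 354, 385 and 386 CPM in PP2A-KO and 354, 342 and 336 CPM in WT. Its PP2A-KO libraries were all above the WT libraries, PP2A-KO replicate 1 by a small margin (log2 fold change 0.12, adjusted p = 0.173).

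Ppib, the ER cyclophilin, had 134, 141 and 140.4 CPM in PP2A-KO and 123, 133 and 124 CPM in WT. The groups did not overlap, and the log2 fold change of 0.13 did not pass the test (adjusted p = 0.138) but did with the replicate block (adjusted p = 0.0239). Ero1l and Ero1lb encode the oxidases that recharge the disulfide isomerases. Ero1l had overlapping groups (25.2 ± 0.303 against 24.7 ± 1.42 CPM), and Ero1lb had 26.5, 28.4 and 26.8 CPM in PP2A-KO against 32.1, 28.5 and 28.5 CPM in WT (log2 fold change -0.13, adjusted p = 0.193). Of the exonic 50-base windows of Ppib and Ero1lb, 8.48% and 9.26% also occur in other genes, and 24.96% of the exonic bases of Ppib lie under exons of Snx22 on the opposite strand, so the counts of both are uncertain to that extent.

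Of the 6 co-chaperones and secreted folding factors, Dnajb9 was the 1 that passed the test, and it was lower in PP2A-KO. Dnajb9 (ERdj4) is a J-domain partner of BiP that represses IRE1 and delivers clients to ERAD. It had 24.8, 25.7 and 30.7 CPM in PP2A-KO and 34.2, 34.4 and 32.8 CPM in WT. All PP2A-KO libraries lay below all WT libraries, with PP2A-KO replicate 3 nearest to WT. The means of 27.1 ± 3.18 and 33.8 ± 0.898 CPM differed by a log2 fold change of -0.32 (SE 0.08, 95% interval -0.56 to -0.08, adjusted p = 0.0158 by edgeR), and the adjusted p rose to 0.0512, 0.0604 and 0.0571 without PP2A-KO replicate 1, PP2A-KO replicate 2 and WT replicate 2, respectively. The gene lies at chr12:44205559-44210326 on the minus strand, and 5.50% of its 50-base windows also occur elsewhere.

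The other J-domain partners of BiP moved by less. Dnajc3 (p58IPK), also an inhibitor of PERK, had 104, 104 and 107 CPM in PP2A-KO and 119, 115 and 112 CPM in WT. Dnajb11 (ERdj3) had 122, 129 and 133 CPM in PP2A-KO and 119, 117 and 115 CPM in WT. Neither pair of groups overlapped, in opposite directions, and neither gene passed the test (log2 fold change -0.13, adjusted p = 0.0976 for Dnajc3 and 0.13, adjusted p = 0.124 for Dnajb11). Both passed with the replicate block (adjusted p = 0.0221 and 0.0351). Sdf2l1 (51.4 ± 2.82 against 52.2 ± 6.28 CPM), the secreted factor Manf (48.5 ± 2.02 against 46.3 ± 2.67) and Creld2 (25.8 ± 1.63 against 26.4 ± 1.86) had overlapping groups.

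The ERAD genes held calls in both directions, 2 higher and 2 lower of 9 (22.2% each, near the 18.1% and 19% of all genes tested). Herpud1, a stress-inducible membrane protein that gathers the degradation complex at the ubiquitin ligase, had the largest log2 fold change in size of the 36 genes. Its counts were 236, 166 and 282 in the PP2A-KO libraries and 487, 459 and 519 in the WT libraries. In CPM these were 5.56, 5.03 and 6.76 against 9.80, 10.6 and 12.4, so that the highest PP2A-KO library lay below the lowest WT library. The mean was 46.7% lower in PP2A-KO (5.78 ± 0.885 against 10.9 ± 1.33 CPM, log2 fold change -0.91, SE 0.13, 95% interval -1.27 to -0.54, adjusted p = 0.000763 by edgeR), a level 1.88-fold lower. Herpud1 lies at chr8:94386438-94395377 on the plus strand.

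Syvn1 encodes HRD1, the ubiquitin ligase of that complex. It had 96.3, 94.97 and 91.1 CPM in PP2A-KO and 74.1, 77.6 and 75.5 CPM in WT. The groups did not overlap, and PP2A-KO was 24.3% higher (log2 fold change 0.31, SE 0.06, 95% interval 0.16 to 0.47, adjusted p = 0.00235 by edgeR). Syvn1 lies at chr19:6046576-6053712 on the plus strand.

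Os9, the lectin that brings glycoproteins to HRD1, had 314, 314 and 313 CPM in PP2A-KO and 270.0, 272 and 259 CPM in WT. The PP2A-KO libraries were all above WT, and the means of 314 ± 0.632 and 267 ± 6.89 CPM differed by a log2 fold change of 0.23 (SE 0.06, adjusted p = 0.0140 by edgeR). Without PP2A-KO replicate 2 the adjusted p was 0.0538. Os9 lies at chr10:127095650-127121131 on the minus strand.

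Edem2, the mannosidase that starts the trimming of glycoproteins for degradation, was lower. It had 75.7, 79.9 and 82.9 CPM in PP2A-KO and 93.3, 93.3 and 89.9 CPM in WT, without overlap (log2 fold change -0.21, SE 0.06, adjusted p = 0.0203 by edgeR). The adjusted p was 0.0584, 0.0619 and 0.0747 without PP2A-KO replicate 1, PP2A-KO replicate 2 and WT replicate 2, respectively. Edem2 lies at chr2:155701677-155729475 on the minus strand.

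The other 5 ERAD genes were not called. Sel1l, the scaffold that holds HRD1, had 186 ± 6.92 CPM in PP2A-KO and 188 ± 8.01 CPM in WT (log2 fold change -0.02, adjusted p = 0.855). Edem1, a further mannosidase-like factor, had a log2 fold change of 0.06 (adjusted p = 0.519). The Derlins, multi-pass proteins of the retrotranslocation channel, had log2 fold changes of 0.04 (Derl1), 0.07 (Derl2) and 0.09 (Derl3), and for Derl3 the 95% interval reached from -0.79 to 0.97. Derl3 was therefore not informative at this depth, and for the other 27 of the 28 genes without a call the 95% interval lay within ± 0.5.

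The translocon and TRAP genes held 0 calls of 5 at FDR under 0.05 in edgeR, with 3 of 5 at an unadjusted p under 0.05, 1 higher in DESeq2 and 0 in limma-voom. Over all genes tested, 37.1% passed FDR under 0.05 in edgeR in either direction. With the replicate block 3 of 5 were higher, against 24.4% of all genes tested. These were Sec61g (20.1, 23.5 and 24.9 CPM in PP2A-KO, 18.6, 20.2 and 19.8 CPM in WT; log2 fold change 0.23, adjusted p = 0.0677 and 0.00849 with the block), Sec61b (25.4, 28.9 and 29.6 CPM against 23.6, 25.7 and 24.4 CPM; 0.19, adjusted p = 0.0829 and 0.0134) and Ssr3 (211, 214 and 218 CPM against 209.9, 180.5 and 174 CPM; 0.19, adjusted p = 0.0938 and 0.0170). The groups of Sec61g and Sec61b overlapped in 1 PP2A-KO library, and those of Ssr3 did not overlap. Sec61b and Sec61g encode the small subunits of the channel, and 17.4% and 14.8% of their 50-base windows also occur in other genes. The channel subunit Sec61a1 (189 ± 2.33 against 179 ± 4.13 CPM) and the TRAP subunit Ssr1 (146 ± 4.21 against 153 ± 4.06 CPM) had log2 fold changes of 0.08 and -0.07.

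Among the sensors, the gene for PERK was lower in PP2A-KO, the genes for IRE1 and ATF6 were not called, and Xbp1 was higher. Eif2ak3, which encodes PERK, had 15.3, 18.4 and 17.3 CPM in PP2A-KO and 28.5, 29.5 and 29.4 CPM in WT. The groups were far apart relative to their spread (17.0 ± 1.54 against 29.2 ± 0.529 CPM). The level was 41.8% lower in PP2A-KO (log2 fold change -0.78, SE 0.08, 95% interval -0.99 to -0.57, adjusted p = 0.000135 by edgeR), the smallest adjusted p of the 36 genes. Eif2ak3 lies at chr6:70844515-70905245 on the plus strand, and 8.05% of its exonic bases lie under an exon of Gm43292 on the opposite strand.

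Xbp1, the transcription factor whose mRNA IRE1 splices, had 159, 165 and 160.0 CPM in PP2A-KO and 136, 139.5 and 133 CPM in WT. The groups did not overlap, and PP2A-KO was 18.3% higher (log2 fold change 0.24, SE 0.06, 95% interval 0.08 to 0.40, adjusted p = 0.0101 by edgeR). Gene counts hold both the spliced and the unspliced form, so that splicing was not measured. Xbp1 lies at chr11:5520659-5525893 on the plus strand.

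Ern1, the gene for IRE1alpha, had 95.3, 85.7 and 83.4 CPM in PP2A-KO and 91.8, 85.0 and 86.0 CPM in WT (log2 fold change 0.01, adjusted p = 0.930). Atf6 had 168, 152 and 151 CPM in PP2A-KO and 163, 137 and 139 CPM in WT (0.10, adjusted p = 0.388). For both genes replicate 1 was the highest library of its group and the groups overlapped.

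**Figure D3:**
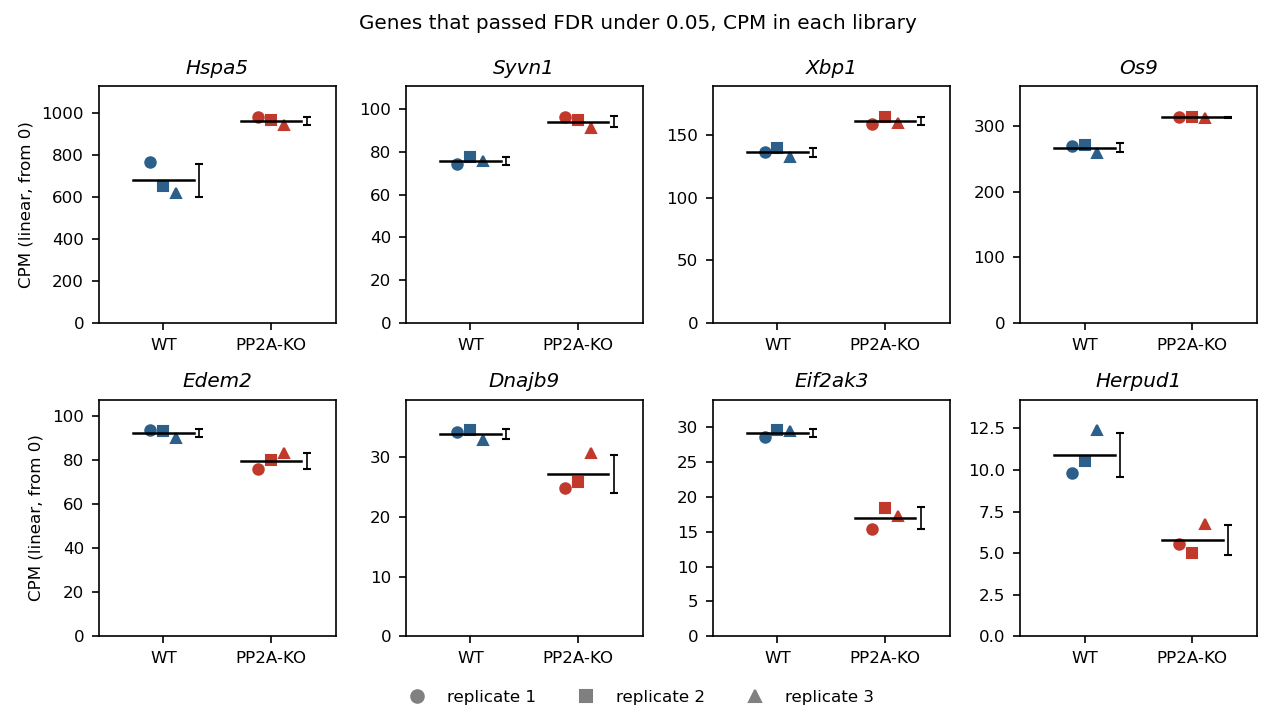
CPM in each library for the 8 of the 36 genes that passed FDR under 0.05, on linear axes from 0. Symbols are replicate numbers, horizontal lines the means and bars the SD of 3 libraries; in each panel all PP2A-KO points lie on one side of all WT points.

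Genes with and without an ERSE had like medians. The 10 genes with an ERSE held 2 higher and 0 lower calls, their median was 0.03 on the log2 scale (range -0.13 to 0.51), and the 21 genes with a RefSeq entry and no ERSE held 2 higher and 4 lower calls and had the same median of 0.03. Outside the 36 genes, 9 of 27 genes with an ERSE were tested, of which 3 were higher and 0 lower. These were Acacb (1.74 CPM in PP2A-KO against 0.827 in WT), Spats2l (0.803 against 0.0996) and Xlr3b (0.969 against 0.230), all at low levels. Over all genes tested 18.1% were higher and 19% lower, and the shares were not tested against each other. Of the genes with an ERSE-II, Herpud1 was lower and Dnajb11 was not called.

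Replicates were tight. The median coefficient of variation of the 36 genes was 4.04% in PP2A-KO and 3.71% in WT, and the highest was that of Derl3 in both groups (16.4% and 17.0%). Summed over the 36 genes, the level was 6192, 6302 and 6382 CPM in PP2A-KO and 6019, 5757 and 5689 CPM in WT, so that the PP2A-KO libraries lay above all WT libraries, and Hspa5 alone made up most of that gap in the means. Abundant genes as a whole were more often higher in PP2A-KO. Of the 935 genes tested at 200 CPM or more, 50.6% were higher and 7.91% lower, whereas of the 9 ER genes at this level 2 were higher (Hspa5 and Os9) and 0 lower. Between 50 and 200 CPM, 31.2% of 2720 genes were higher, against 2 of 17 of the ER genes. In bulk RNA, a change in the share of cells of a type and a change in RNA per cell cannot be told apart.

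Further lists covered the rest of the secretory pathway. Of its 116 tested genes, 18 (15.5%) were higher and 9 (7.76%) lower in PP2A-KO (26 and 17 with the replicate block), against 18.1% and 19% of all genes tested (24.4% and 26.4% with the block), and their median was 0.01 on the log2 scale. Of these lists, the PERK branch downstream of Eif2ak3 had the largest share of higher calls, with 4 of 8 higher and 0 lower (5 and 0 with the block).

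In the PERK branch, Ddit3 (CHOP), the transcription factor induced late in ER stress, had 21.0, 24.3 and 22.5 CPM in PP2A-KO and 13.8, 15.2 and 12.5 CPM in WT. The groups did not overlap (log2 fold change 0.71, SE 0.09, adjusted p = 0.000432 by edgeR). Eif2s1, the gene for eIF2alpha and thus the substrate of PERK, was higher (68.8 ± 2.14 against 51.6 ± 3.92 CPM, 0.42, adjusted p = 0.00146). Both genes for the regulatory subunits of the phosphatase that reverses this phosphorylation were higher: Ppp1r15b (329 ± 31.2 against 226 ± 35.9 CPM, 0.54, adjusted p = 0.00567) and Ppp1r15a (109.2 ± 13.7 against 84.1 ± 10.8 CPM, 0.38, adjusted p = 0.0260). Atf4, the transcription factor translated when eIF2alpha is phosphorylated, had 102 ± 3.14 CPM in PP2A-KO and 85.9 ± 11.5 CPM in WT, with all PP2A-KO libraries above WT (0.25, adjusted p = 0.0587, and 0.00242 with the replicate block). Trib3 (log2 fold change -0.21, adjusted p = 0.188), Chac1 (0.24, adjusted p = 0.564) and Nck1 (0.04, adjusted p = 0.677) were not called, and their groups overlapped. Eif2ak3 was thus lower, while 4 of the 8 genes placed after it were higher and the rest were not called. Over all genes tested, 14.8% were higher at 10 to 50 CPM, the level of Ddit3. The share was 31.2% at 50 to 200 CPM, the level of Ppp1r15a and Eif2s1, and 50.6% at 200 CPM or more, the level of Ppp1r15b. The calls of this list were not tested against these shares.

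The other ATF6, IRE1 and OASIS family regulators held 5 higher and 3 lower of 12. These were 41.7% and 25%, against 18.1% and 19% of all genes tested. DESeq2 called 5 higher and 1 lower, and limma-voom 5 and 3. Creb3l2, an ATF6-like membrane-bound transcription factor, was lower (22.4 ± 1.83 against 37.8 ± 2.39 CPM, log2 fold change -0.76, adjusted p = 0.000170 by edgeR). Traf2, the adaptor that binds IRE1, was higher (44.8 ± 4.40 against 28.2 ± 1.41 CPM, 0.67, adjusted p = 0.000348). Bloc1s1, a substrate of the RNase of IRE1, had 0.589 ± 0.0908 CPM in PP2A-KO and 0.283 ± 0.122 CPM in WT (1.07, adjusted p = 0.0340). Its counts are uncertain, since 55.9% of its exonic bases also belong to exons of Rdh5 on the same strand.

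Of 20 other ERAD genes, 20% were higher and 5% lower, against 18.1% and 19% of all genes tested. These were 4 higher and 1 lower (5 and 2 with the replicate block). Those with the largest change were the ER ubiquitin ligase Rnf139 (87.2 ± 3.62 against 56.8 ± 8.48 CPM, log2 fold change 0.62), the ubiquitin-conjugating enzyme Ube2j1 (127 ± 7.66 against 100.5 ± 12.9 CPM, 0.34), which works with HRD1, and the ERAD factor Aup1 (148 ± 2.05 against 124 ± 8.66 CPM, 0.26), with adjusted p of 0.00125, 0.0214 and 0.0161. Translocation and signal peptide genes held 2 higher (11.1%) and 0 lower of 18, against 18.1% and 19% of all genes tested. With the block 4 were higher and 1 lower, against 24.4% and 26.4% of all genes. The 2 higher were Srpr, a subunit of the receptor of the signal recognition particle (log2 fold change 0.27, adjusted p = 0.00873), and the TRAP subunit Ssr4 (0.20, adjusted p = 0.0408). N-glycosylation and calnexin cycle genes held 0 calls of 14 in edgeR, DESeq2 and limma-voom, with 1 of 14 at an unadjusted p under 0.05, and 2 higher and 2 lower with the block.

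ER to Golgi transport genes held 3 higher and 1 lower of 19 (3 and 3 with the block). These were 15.8% and 5.26%, against 18.1% and 19% of all genes tested. The COPII coat genes Sec24b (170.3 ± 19.2 against 106 ± 12.1 CPM, log2 fold change 0.68, adjusted p = 0.000962 by edgeR) and Sec23b (90.0 ± 2.87 against 74.2 ± 2.72 CPM, 0.28, adjusted p = 0.00555) were higher. Kdelr3, a receptor that returns chaperones to the ER, was lower at very low levels (0.252 ± 0.151 against 0.603 ± 0.203 CPM, -1.31, adjusted p = 0.0389), and its groups overlapped. Other ER folding enzymes held 0 higher and 4 lower (16%) of 25, against 18.1% and 19% of all genes tested. With the block these were 2 and 6, against 24.4% and 26.4% of all genes. The lower genes were led by the prolyl isomerase Fkbp10 (0.799 ± 0.0844 against 2.55 ± 0.618 CPM, -1.67, adjusted p = 0.000571), followed by Tmx4 (48.9 ± 3.20 against 61.7 ± 2.30 CPM, -0.34, adjusted p = 0.00371) and Fkbp9 (16.2 ± 2.06 against 20.01 ± 0.727 CPM, -0.31, adjusted p = 0.0285).

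Cytosolic and mitochondrial chaperones held 3 higher and 6 lower of 24 (7 and 7 with the block). These were 12.5% and 25%, against 18.1% and 19% of all genes tested. The small heat shock genes Hspb1 (0.260 ± 0.146 against 1.17 ± 0.373 CPM, log2 fold change -2.22, adjusted p = 0.00232 by edgeR) and Hspb8 (-1.56, adjusted p = 0.0113) were lower at low levels, and the HSP70 co-chaperone Dnaja2 was higher (279.9 ± 19.1 against 149 ± 23.9 CPM, 0.91, adjusted p = 0.000356). Collagen-folding ER genes held 4 higher and 5 lower of 12 (33.3% and 41.7%, against 18.1% and 19% of all genes), and 4 and 7 with the block, where P4ha2 and Crtap also passed as lower. Serpinh1 (HSP47), the collagen chaperone, had 3.56, 3.30 and 2.06 CPM in PP2A-KO and 10.7, 12.1 and 8.78 CPM in WT (-1.83, adjusted p = 0.000186). The collagen hydroxylases P4ha3 (0.299 ± 0.141 against 0.865 ± 0.398 CPM, -1.51, adjusted p = 0.0266) and Plod2 (1.59 ± 0.379 against 3.54 ± 0.409 CPM, -1.16, adjusted p = 0.00137) were lower. P3h1 (11.2 ± 1.23 against 14.2 ± 1.52 CPM, -0.33, adjusted p = 0.0385) and Colgalt1 (112 ± 7.56 against 141 ± 7.90 CPM, -0.32, adjusted p = 0.00744) were lower too. The 4 genes of the list called higher were hydroxylases. These were P4ha1 (276 ± 11.2 against 173 ± 23.6 CPM, 0.67, adjusted p = 0.000710), Plod3 (267 ± 14.4 against 178 ± 13.8 CPM, 0.58, adjusted p = 0.000502), P3h3 (26.4 ± 1.45 against 19.6 ± 1.41 CPM, 0.43, adjusted p = 0.00210) and Plod1 (209.1 ± 2.69 against 186 ± 1.33 CPM, 0.17, adjusted p = 0.0464).

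**Figure D4:**
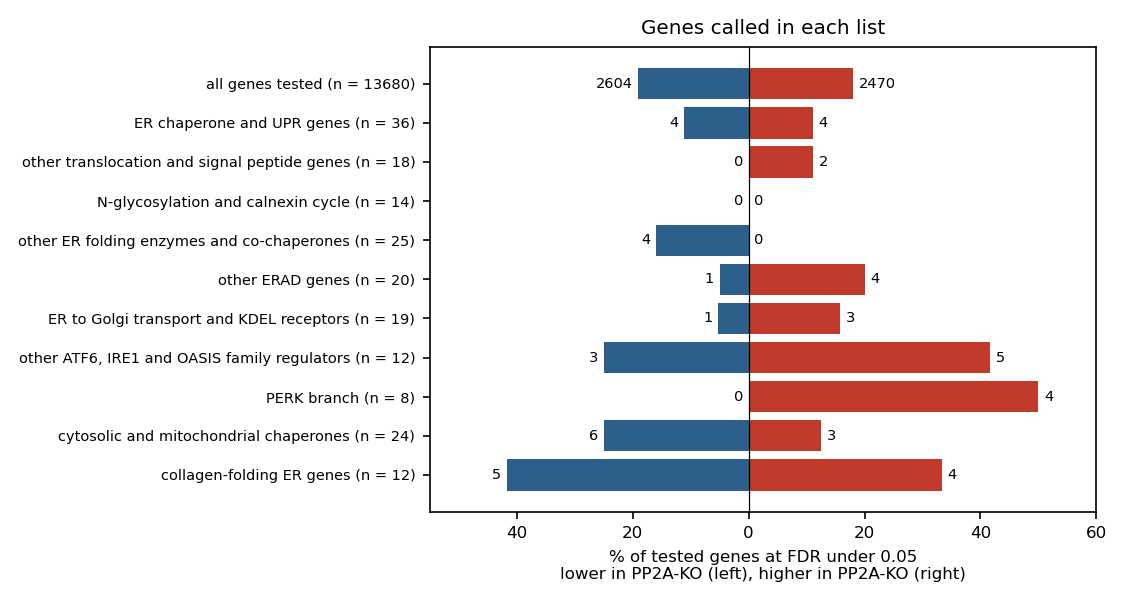
Share of tested genes at FDR under 0.05 in each list, lower in PP2A-KO to the left and higher to the right, in percent, with the number of genes at each bar. All 13680 genes tested are in the top row; the 36 ER chaperone and unfolded protein response genes have 4 in each direction, and the PERK branch has 4 of 8 higher and 0 lower.

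Markers of other cells moved with the genotype beside these lists. Of 8 fibroblast markers 7 were tested and all 7 were lower in PP2A-KO (median -1.95 on the log2 scale), and their summed level was 26.9 to 39.8 CPM in PP2A-KO and 88.5 to 134 CPM in WT. Lum, the eighth, had 0 to 6 counts per library. Serpinh1, Fkbp10, Plod2, P4ha3, Kdelr3, Hspb1 and the 4 ER genes called lower shared the direction of these markers between genotypes. The order of the libraries within the groups is given as a description, since 3 libraries a group are too few to relate these genes to the markers. PP2A-KO replicate 3 had the lowest marker sum of its group (26.9 CPM) and the highest Herpud1, Dnajb9 and Edem2 (6.76, 30.7 and 82.9 CPM). WT replicate 3, also lowest in its group (88.5 CPM), had the highest Herpud1 (12.4 CPM) but the lowest Dnajb9 and Edem2. Eif2ak3 was lowest in replicate 1 of both groups. The part of these markers in the results was not tested. Macrophage markers summed to 8765 to 8877 CPM in PP2A-KO and 7381 to 7957 CPM in WT. Of these 8 markers, 3 were higher (Mertk, Fcgr1 and Msr1), and 5 with the block, where Csf1r and Cd14 also passed. Itgam had a log2 fold change of -0.09 and was not called. Over all genes tested 18.1% were higher (24.4% with the block), with 31.2% at 50 to 200 CPM and 50.6% at 200 CPM or more. The 4 ER genes called higher shared the direction of the 3 higher markers between genotypes. The part of the macrophage markers in them was likewise not tested. B and plasma cell markers summed to 235 to 259 CPM in PP2A-KO and 357 to 420.4 CPM in WT, of which Sdc1 made up most (229 against 361 CPM), and Ighm and Sdc1 were lower of 6 tested. Plasma cells are rich in the 36 genes. Of their markers, Mzb1 had 0 or 1 count in each library, Jchain 16 to 34, Igkc 132 to 210, Ighm 434 to 1162 and Sdc1 7905 to 17975, and their part in the results was not tested. Neutrophil markers summed to 0.825 to 1.10 CPM with 0 of 1 tested gene called, dendritic cell markers to 1.31 to 3.04 CPM with 2 of 3 tested genes higher, and T and NK cell markers to 0 to 9 counts per library with none tested.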

How the data were processed

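Whole-number counts per gene were deposited by the authors for 6 libraries. The submitters' processing notes name fastp 0.20.0, STAR 2.7.1a, HTSeq 0.11.2, kallisto 0.46.1, edgeR 3.34.0 and limma 3.48.3 with the mm10 and GRCm38 builds; the strand setting of the counting is not given in the sources used here, so overlapping and antisense genes may share reads (opposite exons cover 8.85% of the exonic bases of Manf and 8.16% of those of Sec61a1). Libraries were prepared with a directional kit and read as pairs.

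Counts were analysed as deposited with edgeR 4.0.16 in R 4.3.3. Genes were kept by filterByExpr (minimum count 10, minimum total 15), scaled by TMM and tested by the quasi-likelihood test with genotype as the term. SE is the log2 fold change divided by the root of F. Intervals are 95%, cover the spread between the libraries, and use the degrees of freedom of the libraries alone. The test also borrows degrees of freedom across genes. The intervals are thus wider than its p-values imply, and some include 0 at an unadjusted p under 0.05. The common dispersion of 0.00769 corresponds to a biological variation of 8.77%. A library's count of 0 allows up to 3 counts, 0.0604 to 0.0909 CPM. Counting error is a large part of the error for genes with few counts, such as Derl3, Kdelr3, Bloc1s1 and Hspb8. Replicates of a group differed by 9.50 to 44.9 times the sampling noise (chi-square per degree of freedom), so none was counted as the same library deposited again, and separate preparations of 1 RNA cannot be told apart from separate cultures.

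Replicate numbers, taken from the titles, were checked for pairing: the deviations of same-numbered PP2A-KO and WT libraries from their group means correlated at 0.446, 0.275 and 0.459, so a blocked fit, with a term for the replicate number, is given where it changed a call or a list's count by over 1.5 times. DESeq2 1.42.0 and limma-voom (limma 3.58.1), other scalings and filters, and leaving out each library were alternatives. Scripts were tested on simulated counts.

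The 36 genes and the lists were chosen with earlier results of these data known. Named are all 36 genes and Ppp2ca. In each further list the 3 genes with the largest change at FDR under 0.05 are named. So is any gene with a log2 fold change beyond 1 at FDR under 0.01. Named after their values were seen were Ppp1r15a, Atf4, Trib3, Chac1, Nck1 and the genes called outside the 36 with an ERSE. So were the collagen hydroxylases called higher, P4ha2, Crtap, P3h1 and Colgalt1. The same holds for the markers and the levels of expression used as limits. Promoter sequences are from RefSeq (GRCm38.p6), gene models from GENCODE M21.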

Additional observations from a re-analysis of the deposited data

How the results depend on the processing

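No log2 fold change of the 36 genes that was called reversed its sign under any of the 13 alternatives. Hspa5, Syvn1, Xbp1, Herpud1 and Eif2ak3 kept their calls in all 13, and all 8 called genes did with RLE or upper-quartile scaling, no filter, at least 10 counts in every library, DESeq2, limma-voom and the replicate block. With the replicate block the number of higher genes was 9, in place of 4, since Ppib, Dnajb11, Sec61b, Sec61g and Ssr3 passed, and Dnajc3 passed as lower; it changed no other call among the 36. With upper-quartile scaling the median log2 fold change of the 36 genes was -0.013, in place of 0.05, as the median of all genes moved to -0.09, and Dnajc3 passed (adjusted p = 0.0193 by edgeR). Sec61b and Sec61g also passed with RLE scaling and without PP2A-KO replicate 1, Sec61g with DESeq2 (adjusted p = 0.0486) and Ssr3 without WT replicate 1 (adjusted p = 0.00545).

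Leaving out 1 library at a time gave 3 to 6 higher and 2 to 4 lower genes of the 36, a median of 0.03 to 0.07, and 1974 to 2721 higher and 1873 to 2720 lower genes over all. The lower genes fell to 2 without PP2A-KO replicate 1, PP2A-KO replicate 2 or WT replicate 2, where Dnajb9 and Edem2 missed the threshold, and Os9 missed it without PP2A-KO replicate 2. With 3 libraries a group, the smallest difference called among the 36 genes was that of Edem2. Derl3 was limited by its depth and was not tested with at least 10 counts in every library.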
